A study of Mus musculus with 30 samples.

Results

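The genes described here are 51 components and regulators of the DNA replication machinery, followed in macrophages sorted for the surface protein F4/80 from mice that carry the TCL1 transgene. Members were the genes whose platform symbol, or an older synonym of it, was on a list of licensing, helicase, polymerase, clamp, nucleotide supply and chromatin assembly genes. The rule uses no measured value, but the list was chosen with earlier results of these data known. The array carried 101 probes for the 51 members, of 19057 genes named on it. 50 members passed the filter, which asked for a detection p-value under 0.05 on at least 3 of the 30 arrays. The single probe for Pola1, the catalytic subunit of DNA polymerase alpha, did not pass, and Pola1 has no value below. In all, 11937 genes were tested.

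The 30 Illumina bead arrays fell into 8 groups of C57BL/6 mice, all heterozygous for the TCL1 transgene (TCL1+/wt). The knockout animals, called KO here, were Mif-/- and the wild-type animals, called WT, were Mif+/+. Mif encodes macrophage migration inhibitory factor, a cytokine. Leukaemic animals gave 4 KO and 3 WT spleen arrays and 6 KO and 5 WT bone marrow arrays. Non-leukaemic animals gave 3 KO and 3 WT spleen arrays and 3 KO and 3 WT marrow arrays. The labels give an age of 2 to 5 months for the leukaemic groups and of 10 to 15 months for the non-leukaemic groups, so leukaemia and age cannot be told apart. These ages are used as labelled, with the leukaemic animals the younger, and were not checked against another source. In the Eµ-TCL1 model the transgene is driven in B cells, and the macrophages measured here are host cells of the leukaemia. No group without the transgene was analysed here. The labels do not say which arrays came from the same animal, so each p-value measures the spread between arrays, and the number of arrays limits its precision.

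Replication proceeds in steps that the members follow. The origin recognition complex, Cdc6 and Cdt1 load the ring of MCM proteins on DNA in G1, and geminin blocks reloading. Cyclin E with Cdk2, and Cdc7 with Dbf4, then switch on the helicase of Cdc45, MCM and GINS, after which primase and the polymerases copy the strands, held by the PCNA clamp that replication factor C loads. Many of these genes are targets of E2F transcription factors and are transcribed at the start of S phase, so their RNA is known as a marker of proliferating cells. Most tissue macrophages divide little, whereas bone marrow holds many dividing progenitors of the blood.

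E2F factors bind promoters at variants of one short site, and 4 promoters are shown here as examples of members that carry one. They are the 4 members with the smallest p among those lower in non-leukaemic spleen whose window holds a site. The 6 members with the smallest p in that comparison, described below, are not among them. RefSeq windows on GRCm38.p6, each from 250 bases before to 50 bases after a gene's start, were searched for TTTCCCGC, TTTCGCGC, TTTGCCGC and TTTGGCGC on both strands. 41 of the 51 members had a window. Capitals mark the matches, and overlapping matches form one run. The lines read 5′ to 3′ along the gene.
Mcm5: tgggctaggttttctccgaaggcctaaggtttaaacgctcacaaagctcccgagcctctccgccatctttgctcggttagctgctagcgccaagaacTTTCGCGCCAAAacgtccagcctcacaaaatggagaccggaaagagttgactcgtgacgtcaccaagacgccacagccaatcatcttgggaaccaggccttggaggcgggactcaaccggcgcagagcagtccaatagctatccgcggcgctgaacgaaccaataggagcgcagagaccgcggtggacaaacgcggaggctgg
Pold1: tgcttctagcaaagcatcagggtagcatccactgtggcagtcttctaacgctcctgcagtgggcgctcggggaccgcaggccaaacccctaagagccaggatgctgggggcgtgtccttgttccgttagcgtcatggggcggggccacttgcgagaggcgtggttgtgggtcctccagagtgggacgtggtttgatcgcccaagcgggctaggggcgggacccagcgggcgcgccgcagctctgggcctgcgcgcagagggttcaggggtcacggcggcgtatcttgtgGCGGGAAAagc
Mcm3: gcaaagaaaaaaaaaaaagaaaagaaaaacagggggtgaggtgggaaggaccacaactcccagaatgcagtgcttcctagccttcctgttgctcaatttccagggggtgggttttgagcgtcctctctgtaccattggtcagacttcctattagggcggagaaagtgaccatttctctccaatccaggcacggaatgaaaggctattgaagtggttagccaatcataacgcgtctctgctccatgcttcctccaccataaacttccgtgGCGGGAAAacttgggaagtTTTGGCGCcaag
Mcm7: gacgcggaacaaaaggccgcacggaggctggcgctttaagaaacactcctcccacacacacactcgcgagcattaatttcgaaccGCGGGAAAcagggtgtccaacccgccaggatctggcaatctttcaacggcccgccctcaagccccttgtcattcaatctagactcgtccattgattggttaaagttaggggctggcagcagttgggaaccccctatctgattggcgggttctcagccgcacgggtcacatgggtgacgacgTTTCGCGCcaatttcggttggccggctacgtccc

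The Mcm5 window (chr8:75109259-75109558, plus strand) held TTTCGCGC from position -153 on the gene's strand and TTTGGCGC on the other strand from position -149, where positions give the first base of a match along the gene, counted from 0 at the gene's start, so that the matches overlap. The Pold1 window (chr7:44548766-44549065, minus strand) held TTTCCCGC on the other strand from position 39. The Mcm3 window (chr1:20820263-20820562, minus strand) held TTTCCCGC on the other strand from position 19 and TTTGGCGC on its own strand from position 38. The Mcm7 window (chr5:138171834-138172133, minus strand) held TTTCCCGC on the other strand from position -165 and TTTCGCGC on its own strand from position 16. One of the 4 spellings was found in 15 of the 41 members (36.6%), against 704 of 27025 genes with a window (2.6%). Of the members lower in non-leukaemic spleen, 7 of 24 with a window held a match, against 7 of 16 of the other measured members. The CCAAT box was found in 24 of the 41 members (58.5%), against 41.1% of all genes. Median GC content was 61.3% in the members' windows and 52.7% in all windows, and E2F sites are rich in G and C. A match is a string of letters and was not tested as a binding site.

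The deleted gene matched the labels. Mif had normalised log2 intensities of 4.14 to 5.07 on KO arrays and 10.41 to 12.38 on WT arrays. Adgre1, which encodes F4/80, lay between 7.70 and 10.75 on all 30 arrays. The raw intensity of the median probe was 76.5 to 96.8. Between 16492 and 18567 probes gave a signal above background on an array, and 38 to 50 of the members did. Some arrays stood apart. WT non-leukaemic spleen replicate 1 was the array least like any other over all genes. Its highest correlation was 0.919, with replicate 3 of its group, and that of every other array was 0.967 or more. Over all genes, spleen arrays KO leukaemic replicate 2, KO non-leukaemic replicate 6 and WT leukaemic replicate 3 correlated best with a marrow array. Marrow arrays KO leukaemic replicate 1 and WT leukaemic replicate 2 correlated best with a spleen array. The members' counts and medians are given with and without the 3 spleen arrays nearest to marrow, a choice made after seeing the data. Other values are given with all arrays unless stated. Because likeness to marrow picked these 3 arrays, leaving them out favours a larger difference between spleen and marrow. WT non-leukaemic spleen replicate 1 is not among the 3 and stays in both sets.

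The members were lower in spleen than in marrow macrophages of mice without leukaemia. The mean over the 50 members was 6.00 to 7.75 with a median of 6.56 on the 6 non-leukaemic spleen arrays, against 7.52 to 7.92 with a median of 7.76 on the 6 non-leukaemic marrow arrays. The highest spleen value, 7.75, belonged to KO replicate 6, and it was the spleen array inside the marrow range. With leukaemia the spleen arrays ran from 6.66 to 8.04 with a median of 7.77, and the marrow arrays from 6.70 to 8.17 with a median of 7.76. There the tissues overlapped over most of their range. By group, the member mean was 7.35 ± 0.61 in KO leukaemic spleen (SD, n = 4) and 6.83 ± 0.88 in KO non-leukaemic spleen (SD, n = 3). It was 7.57 ± 0.67 in WT leukaemic spleen and 6.44 ± 0.34 in WT non-leukaemic spleen (SD, n = 3 each). The 4 marrow groups had means between 7.52 and 7.82. All values are log2 intensities after background correction and quantile normalisation.

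**Figure D1:**
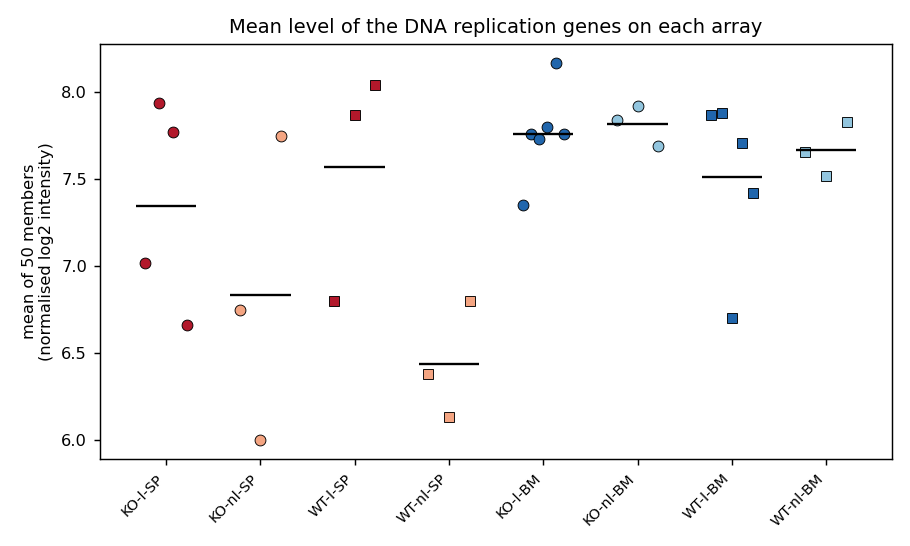
Mean normalised log2 intensity over the 50 measured members on each of the 30 arrays (vertical axis) by group (horizontal axis: KO or WT, l for leukaemic or nl for non-leukaemic, SP for spleen or BM for marrow). Circles are KO arrays, squares WT arrays and black lines group means; non-leukaemic spleen lies lowest, between 6.00 and 7.75, with KO replicate 6 at the top of that range.

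Without leukaemia, 30 of the 50 members fell in spleen relative to marrow at a Benjamini-Hochberg adjusted p under 0.05 (limma, both genotypes together), against 4.73% of all genes tested that were lower by the same test. None of the 50 was higher, against 3.03% of all genes. At an unadjusted p under 0.05, 44 were lower, against 11.5% of all genes by that rule. The median difference was -1.07 over the members and 0.01 over all genes, and the members ran from -2.38 to 0.07. In WT mice 9 members passed, against a background of 2.06%, with a median of -1.24. They were Ccne2, Cdc45, E2f2, Mcm10, Mcm3, Mcm7, Rfc5, Rrm2 and Tyms. In KO mice 0 passed and 27 had an unadjusted p under 0.05, all lower, against 6.15% of all genes by that rule, with a median of -1.0; none of all genes passed there (0%). In bulk RNA of sorted cells, fewer cells of a type and less RNA per cell cannot be told apart.

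Single arrays moved these counts. The number lower in both genotypes together was 12 without KO non-leukaemic spleen replicate 5, among 527 genes called in either direction, and 18 without replicate 4 of that group, among 564. It was 18 without WT non-leukaemic marrow replicate 1, among 608 genes, or replicate 3, among 644, and 19 without KO non-leukaemic marrow replicate 1, among 572. It was 41 without KO non-leukaemic spleen replicate 6, among 1202 genes. Without the 3 spleen arrays nearest to marrow it was 41 for both genotypes, against 12.1% of all genes called in either direction, 24 for WT (5.99%) and 18 for KO (2.73%). Those arrays were picked for likeness to marrow, so their omission favours a larger tissue difference, and these counts are a description. Among all genes the calls rose too, from 927 to 1443 for both genotypes, 461 to 715 for WT and 0 to 326 for KO. The 30 members called with all arrays were among the 41. The medians were then -1.34 for both genotypes, -1.24 for WT and -1.42 for KO, and the 6 members with the smallest p lay between -2.79 and -1.76 and passed. The WT count was 0 without spleen replicate 1, among 13 genes, or without marrow replicate 1, among 26, or marrow replicate 3, among 86. It was 1 without marrow replicate 2, among 144 genes, and 5 without spleen replicate 2, among 853. The KO count was 9 without spleen replicate 6, among 166 genes. For 4 members (Gins4, Dbf4, Rrm2 and Tyms) the 6 spleen arrays lay wholly below the 6 marrow arrays, against 2.61% of all genes. Without KO spleen replicate 6, which is among the 3 spleen arrays nearest to marrow, that held for 42 of the 50, against 5.86% of all genes. Within single array slides the median member difference between non-leukaemic spleen and marrow was -1.01 and -1.72 for WT and -1.16 and -0.85 for KO.

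**Figure D2:**
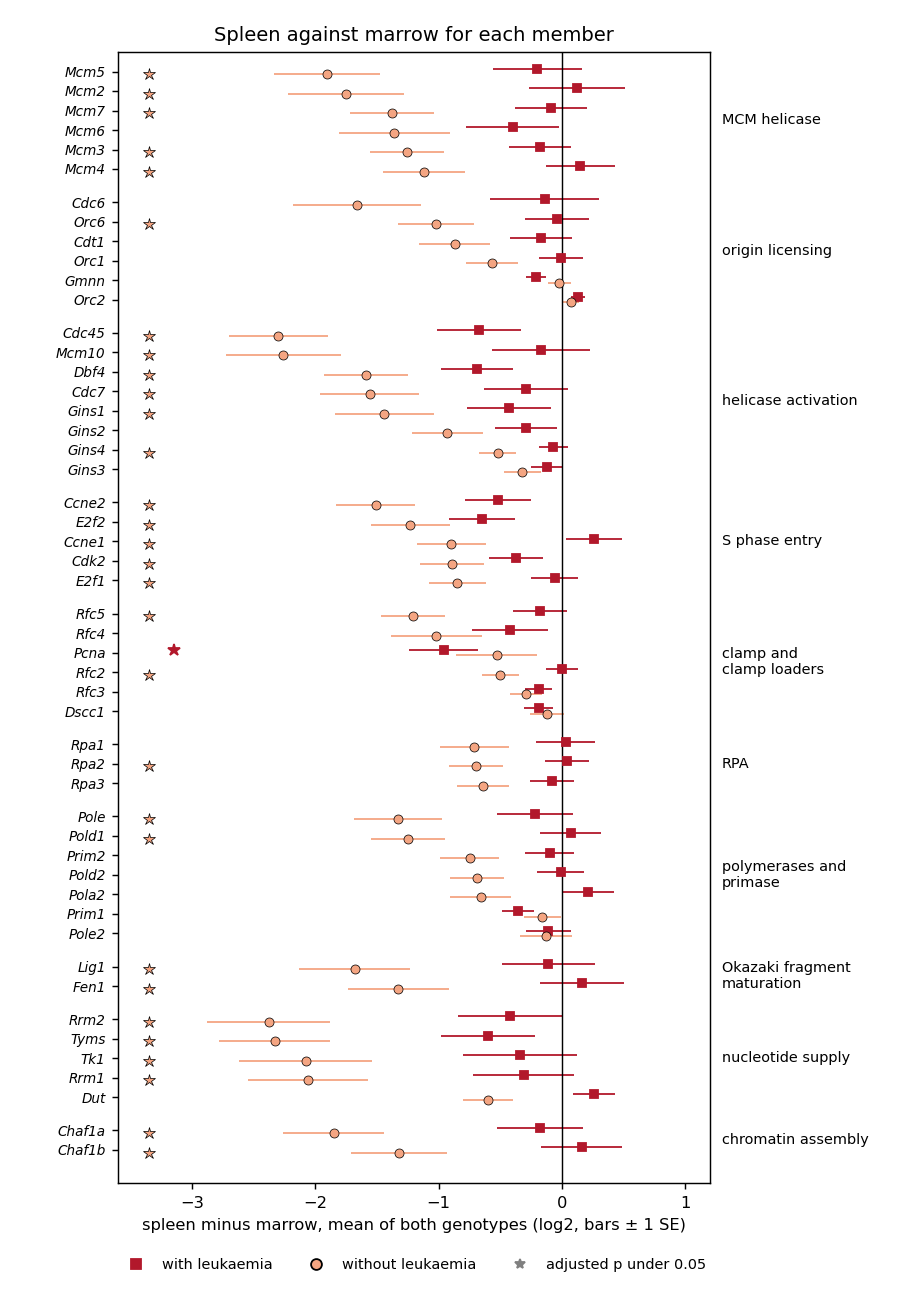
Spleen minus marrow difference in log2 intensity (horizontal axis) for each of the 50 measured members by subgroup (vertical axis), with bars of 1 SE. Squares are leukaemic mice, circles non-leukaemic mice and stars mark adjusted p under 0.05; most circles lie between -2.38 and -0.50, while the leukaemic squares centre on -0.17.

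Among the MCM proteins, the 6 subunits of the helicase ring, 5 of 6 fell in non-leukaemic spleen, with a subgroup median of -1.37. Mcm5 read 9.5, 7.73 and 10.86 in KO and 8.36, 8.32 and 9.66 in WT non-leukaemic spleen, against 11.01, 11.34 and 11.04 in KO and 10.81, 10.46 and 11.26 in WT non-leukaemic marrow. KO spleen replicate 6 lay among the marrow arrays, and the other 5 spleen arrays lay below all 6 of them. The difference was -1.91 ± 0.43 (SE, adjusted p = 0.0073), or 3.77-fold. The other members that passed were Mcm2 at -1.75, Mcm7 at -1.38, Mcm3 at -1.26 and Mcm4 at -1.12. Mcm6, at -1.36 ± 0.45 (adjusted p = 0.062), did not pass. Mcm5, Mcm3 and Mcm7 are the MCM genes whose promoters are printed above.

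Between leukaemic spleen and marrow the MCM differences ran from -0.40 to 0.15 and none passed. Mcm4 ranged over 9.96 to 11.67 (median 11.23) in leukaemic spleen and 9.16 to 11.22 (median 9.84) in non-leukaemic spleen, and over 9.30 to 11.28 (median 10.96) in leukaemic marrow and 10.81 to 11.28 (median 11.08) in non-leukaemic marrow. The leukaemic and non-leukaemic spleen arrays overlapped. All 6 MCM genes had an unadjusted p under 0.05 for leukaemia in spleen and none passed after adjustment. Their differences ran from 0.77 for Mcm3 to 1.5 ± 0.41 for Mcm5 (adjusted p = 0.12).

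In origin licensing 1 of 6 members, Orc6, a subunit of the origin recognition complex, fell in non-leukaemic spleen, by a difference of -1.02 ± 0.31 (adjusted p = 0.039). The subgroup median was -0.72. Cdc6, which recruits the MCM ring, stood at -1.66 ± 0.52 (adjusted p = 0.051). Cdt1, its partner in loading, read 8.39, 8.0 and 9.64 in KO and 8.19, 7.56 and 8.12 in WT non-leukaemic spleen, against 8.76, 9.56 and 9.16 in KO and 9.18, 8.94 and 9.5 in WT non-leukaemic marrow. KO spleen replicate 6 exceeded every marrow array and the other 5 spleen arrays lay below them, and the difference of -0.87 ± 0.29 did not pass (adjusted p = 0.07). Orc1, the largest subunit of the complex, stood at -0.57 ± 0.21.

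Orc2 and Gmnn were near the limit of detection. Orc2, another subunit of the complex, was detected on 3 of 6 non-leukaemic spleen and 1 of 6 non-leukaemic marrow arrays and differed by 0.07 ± 0.07, with a 95% interval of -0.07 to 0.20. Gmnn, which encodes geminin, was detected on 0 and 1 of those arrays and differed by -0.02 ± 0.09 (95% interval -0.20 to 0.17). For leukaemia in spleen, Cdt1 had the smallest p of the subgroup, at 0.81 ± 0.28 (adjusted p = 0.17).

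Helicase activation held 6 of 8 members that fell in non-leukaemic spleen, with a median of -1.5. Cdc45, which joins MCM and GINS in the active helicase, had the smallest p of all members. It read 6.25, 5.25 and 7.67 in KO and 4.73, 5.34 and 5.85 in WT non-leukaemic spleen, against 8.44, 8.58 and 8.11 in KO and 7.84, 7.61 and 8.32 in WT non-leukaemic marrow. The spleen arrays lay below the marrow arrays except for KO spleen replicate 6, which came within the WT marrow values. The difference of -2.30 ± 0.40 (adjusted p = 0.001) is a 4.93-fold lower level in spleen.

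Mcm10, which helps to start the assembled helicase, read 7.57, 5.74 and 9.03 in KO and 5.97, 6.10 and 7.91 in WT non-leukaemic spleen, against 9.24, 9.60 and 9.43 in KO and 9.09, 9.01 and 9.48 in WT non-leukaemic marrow. KO spleen replicate 6 was again the highest of the spleen arrays and passed 1 marrow array. The difference was -2.26 ± 0.47 (adjusted p = 0.0045). Dbf4, the activating subunit of Cdc7 kinase, read 7.19, 6.65 and 8.42 in KO and 7.44, 6.86 and 7.57 in WT non-leukaemic spleen, against 9.22, 9.13 and 8.82 in KO and 8.92, 8.85 and 8.73 in WT non-leukaemic marrow. All 6 spleen arrays lay below all 6 marrow arrays, with a difference of -1.59 ± 0.34 (adjusted p = 0.0051). Cdc7 itself differed by -1.56 ± 0.40 (adjusted p = 0.018).

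The GINS complex, 4 proteins that travel with the helicase, was mixed. Gins1 differed by -1.44 ± 0.40 and Gins4 by -0.52 ± 0.15, and both passed. Gins2, at -0.93 ± 0.29 (adjusted p = 0.051), and Gins3, at -0.32 ± 0.15 (adjusted p = 0.2), did not. Gins4 ranged over 8.58 to 9.15 (median 8.89) in non-leukaemic spleen, below its 9.28 to 9.45 (median 9.40) in non-leukaemic marrow. For leukaemia in spleen the subgroup ran from 0.09 for Gins3 to 1.75 for Mcm10, with no member past the adjusted threshold.

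All 5 genes of S phase entry fell in non-leukaemic spleen, with a median of -0.90. Ccne2, one of the cyclin E genes, read 4.77, 4.22 and 6.00 in KO and 4.2, 4.41 and 4.69 in WT non-leukaemic spleen, against 6.50, 6.00 and 6.30 in KO and 6.18, 6.43 and 5.97 in WT non-leukaemic marrow. KO spleen replicate 6 reached the marrow values and the other spleen arrays did not. Its difference was -1.51 ± 0.32 (adjusted p = 0.0045), with detection on 3 of the 6 spleen arrays and on all 6 marrow arrays.

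Ccne1, the other cyclin E gene, ranged over 4.27 to 5.66 (median 4.38) in non-leukaemic spleen and 5.00 to 5.77 (median 5.50) in non-leukaemic marrow, a difference of -0.90 ± 0.28 (adjusted p = 0.044). The transcription factor genes E2f1 and E2f2 stood at -0.85 ± 0.23 and -1.23 ± 0.32, and the kinase gene Cdk2 at -0.89 ± 0.26. E2f2 ranged over 10.05 to 11.62 (median 10.17) in leukaemic spleen and 7.70 to 10.60 (median 9.71) in non-leukaemic spleen. The top of the leukaemic spleen range was KO replicate 2, one of the arrays that resembled marrow. Ccne1 had the subgroup's smallest p for leukaemia in spleen, at 0.86 ± 0.27 (adjusted p = 0.13).

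Of the clamp and clamp loader genes, 2 of 6 fell in non-leukaemic spleen, with a median of -0.52. These were Rfc5, at -1.21 ± 0.26 (adjusted p = 0.0061), and Rfc2, at -0.50 ± 0.15 (adjusted p = 0.042), both subunits of replication factor C. Rfc2 ranged over 9.58 to 10.40 (median 9.85) in non-leukaemic spleen and 10.08 to 10.54 (median 10.45) in non-leukaemic marrow, with overlap. Rfc4 stood at -1.02 ± 0.37 and Rfc3 at -0.29 ± 0.13. Pcna, the clamp itself, differed by -0.53 ± 0.33 (adjusted p = 0.36). Dscc1, a subunit of an alternative clamp loader with a role in sister chromatid cohesion, was detected on 2 of 6 non-leukaemic spleen and 2 of 6 non-leukaemic marrow arrays and differed by -0.12 ± 0.14 (95% interval -0.41 to 0.18). For leukaemia in spleen the smallest p of the subgroup was that of Rfc2, at 0.49 ± 0.15 (adjusted p = 0.12).

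Replication protein A coats single-stranded DNA, and 1 of its 3 subunit genes fell in non-leukaemic spleen. Rpa2 passed at -0.70 ± 0.22 (adjusted p = 0.046), while Rpa1 at -0.71 ± 0.28 (adjusted p = 0.12) and Rpa3 at -0.64 ± 0.21 (adjusted p = 0.059) did not. Rpa1 ranged over 9.39 to 11.07 (median 10.40) in non-leukaemic spleen and 10.81 to 11.20 (median 11.10) in non-leukaemic marrow. Rpa2 ranged over 5.64 to 6.96 (median 6.64) in leukaemic spleen and 5.20 to 6.36 (median 5.63) in non-leukaemic spleen, a difference of 0.55 ± 0.21 (adjusted p = 0.2). Both pairs of ranges overlapped.

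Of the 7 measured polymerase and primase genes, 2 fell in non-leukaemic spleen, with a median of -0.69. They were the catalytic subunit genes of polymerase delta, Pold1, and of polymerase epsilon, Pole, the enzymes that copy most of the lagging and leading strands. Pold1, whose promoter is printed above, read 8.20, 7.36 and 9.09 in KO and 7.59, 7.34 and 8.23 in WT non-leukaemic spleen, against 9.30, 9.45 and 9.44 in KO and 9.07, 8.66 and 9.38 in WT non-leukaemic marrow. KO spleen replicate 6 was the highest spleen array and overlapped the WT marrow arrays. The difference was -1.25 ± 0.30 (adjusted p = 0.011). Pole differed by -1.33 ± 0.36 (adjusted p = 0.024).

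The remaining subunit genes did not pass. Prim2, of primase, stood at -0.75 ± 0.24 (adjusted p = 0.05 after rounding), Pold2 at -0.69 ± 0.22 and Pola2 at -0.66 ± 0.25. Pole2 differed by -0.13 ± 0.21 (95% interval -0.56 to 0.31) and was detected on 3 of 6 arrays of each non-leukaemic tissue. Prim1, the catalytic subunit of primase, was detected on 1 non-leukaemic spleen and 3 non-leukaemic marrow arrays and differed by -0.16 ± 0.15.

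Both genes of Okazaki fragment maturation fell in non-leukaemic spleen. Fen1, the flap endonuclease, differed by -1.33 ± 0.41 (adjusted p = 0.046) and Lig1, the ligase that seals the fragments, by -1.68 ± 0.45 (adjusted p = 0.022). Fen1 ranged over 7.81 to 10.28 (median 8.63) in non-leukaemic spleen and 9.81 to 10.31 (median 10.01) in non-leukaemic marrow. Lig1 read 7.88, 9.87, 9.09 and 7.56 in KO and 7.62, 9.46 and 9.55 in WT leukaemic spleen, against 7.68, 5.82 and 9.04 in KO and 7.10, 6.13 and 7.45 in WT non-leukaemic spleen. The leukaemic arrays tended higher but overlapped the others, and the difference of 1.54 ± 0.44 did not pass (adjusted p = 0.12).

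Nucleotide supply had the lowest median of the subgroups, -2.08, and 4 of its 5 members fell in non-leukaemic spleen. Rrm2, the small subunit of ribonucleotide reductase, read 6.13, 4.63 and 7.85 in KO and 5.16, 4.75 and 6.30 in WT non-leukaemic spleen, against 8.59, 7.92 and 8.08 in KO and 8.17, 8.38 and 7.94 in WT non-leukaemic marrow. All spleen arrays lay below all marrow arrays. Its difference of -2.38 ± 0.50 (adjusted p = 0.0045) was the lowest among the members, a 5.19-fold lower level.

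Tyms, thymidylate synthase, read 6.75, 5.45 and 8.36 in KO and 5.66, 5.60 and 7.10 in WT non-leukaemic spleen, against 8.92, 8.93 and 8.69 in KO and 8.82, 8.70 and 8.81 in WT non-leukaemic marrow. These tissues too did not overlap, with a difference of -2.33 ± 0.45 (adjusted p = 0.0026). Rrm1, the large subunit of ribonucleotide reductase, differed by -2.06 ± 0.49 and Tk1, thymidine kinase, by -2.08 ± 0.54. Rrm1 ranged over 6.35 to 9.55 (median 7.24) in non-leukaemic spleen and 9.26 to 9.83 (median 9.48) in non-leukaemic marrow, with overlap at the top of the spleen range. Dut, which removes dUTP, stood at -0.60 ± 0.20 (adjusted p = 0.066). Both chromatin assembly factor genes, whose products place histones on new DNA, fell as well, Chaf1a by a difference of -1.85 ± 0.41 (adjusted p = 0.0073) and Chaf1b by -1.32 ± 0.39 (adjusted p = 0.037). Chaf1b ranged over 5.67 to 7.87 (median 6.65) in non-leukaemic spleen and 7.45 to 8.30 (median 7.84) in non-leukaemic marrow.

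**Figure D3:**
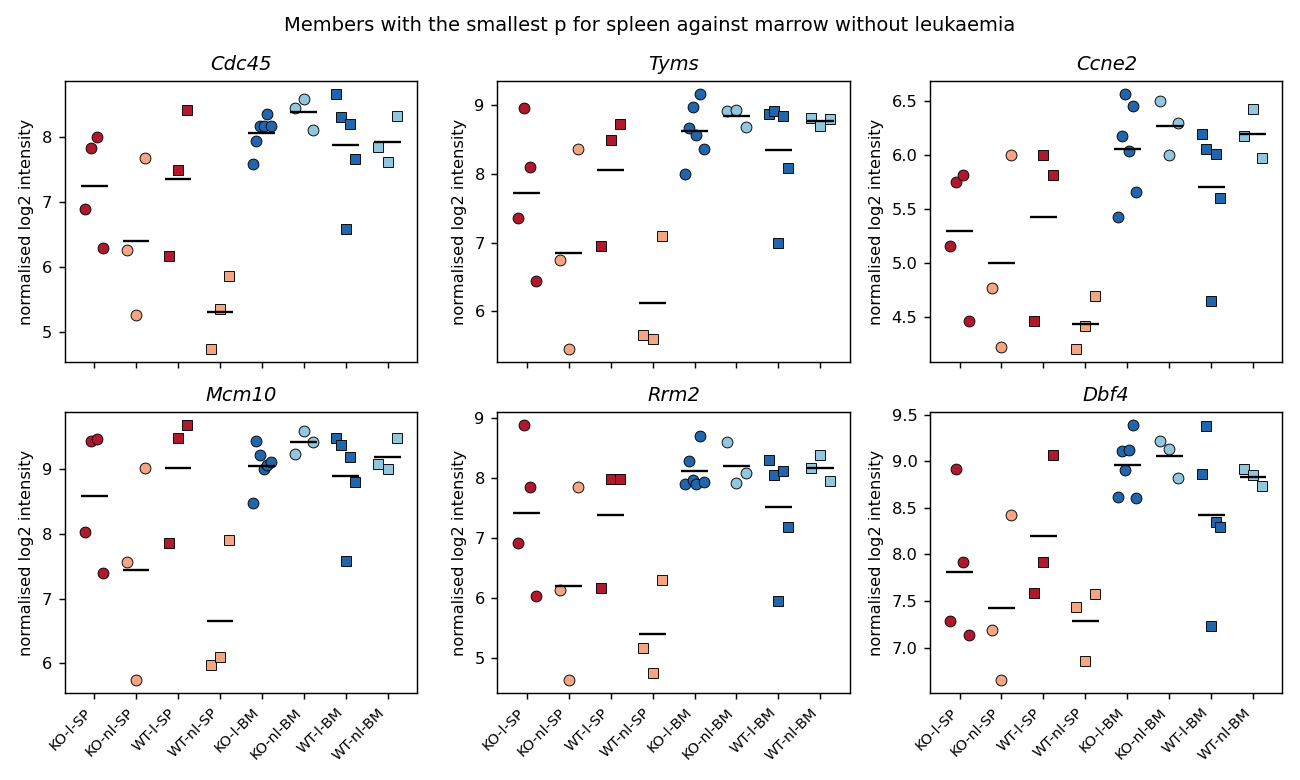
Normalised log2 intensity on each array (vertical axes) of the 6 members with the smallest p between non-leukaemic spleen and marrow, Cdc45, Tyms, Ccne2, Mcm10, Rrm2 and Dbf4, by group (horizontal axes, KO or WT, l leukaemic or nl non-leukaemic, SP spleen or BM marrow). Circles are KO arrays, squares WT arrays and black lines group means; the non-leukaemic spleen groups are lowest in each panel, and in the panels of Dbf4, Rrm2 and Tyms they do not overlap non-leukaemic marrow.

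The second comparison set leukaemic against non-leukaemic spleen. Higher values prevailed among the members, but no member passed the adjusted threshold. With both genotypes together 0 of 50 passed (limma), against 0.00838% of all genes. At an unadjusted p under 0.05, 37 were higher and 0 lower, against 7.05% of all genes that were higher by that rule. The difference was above 0 for 49 of the 50, against 47% of all genes, with a median of 0.78 over the members and -0.01 over all genes. In WT mice 0 passed (background 0.142%), 35 were higher at the unadjusted level (background 7.8%) and the median was 1.11. In KO mice 0 passed (background 0%), 2 were higher at the unadjusted level (background 1.79%) and the median was 0.49. The test of the KO minus WT difference itself gave a median of -0.60, and 0 of 50 passed, against 0% of all genes. 1 member had an unadjusted p under 0.05, with a lower effect in KO, against 3.12% of all genes by that rule.

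Pold1 had the smallest p. It read 8.55, 9.08, 9.86 and 8.65 in KO and 8.42, 9.32 and 9.87 in WT leukaemic spleen, against 8.20, 7.36 and 9.09 in KO and 7.59, 7.34 and 8.23 in WT non-leukaemic spleen. KO replicate 3 and WT replicate 3 were the highest leukaemic arrays. KO non-leukaemic replicate 6 overlapped the leukaemic values, and the other 5 non-leukaemic arrays lay below them all. The difference was 1.15 ± 0.29 (unadjusted p = 0.00052, adjusted p = 0.1).

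Mcm10 read 8.03, 9.44, 9.47 and 7.40 in KO and 7.87, 9.49 and 9.69 in WT leukaemic spleen, against 7.57, 5.74 and 9.03 in KO and 5.97, 6.10 and 7.91 in WT non-leukaemic spleen, a difference of 1.75 ± 0.46 (adjusted p = 0.11). Cdc45 ranged over 6.16 to 8.41 (median 7.49) in leukaemic spleen and 4.73 to 7.67 (median 5.59) in non-leukaemic spleen, a difference of 1.45 ± 0.39 (adjusted p = 0.11). The ranges of both genes overlapped. Dut, Mcm5 and Lig1 followed at 0.71 ± 0.19, 1.5 ± 0.41 and 1.54 ± 0.44, each with an adjusted p of 0.12. Dut ranged over 4.70 to 6.18 (median 5.14) in leukaemic spleen and 4.25 to 5.46 (median 4.62) in non-leukaemic spleen. At the other end stood Gins3 at 0.09 ± 0.15, Prim1 at 0.08 ± 0.15, Gmnn at -0.04 ± 0.09 and Orc2 at 0.01 ± 0.06.

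The absence of calls depended on single arrays. Without KO non-leukaemic spleen replicate 6, 24 members passed with both genotypes together, among 248 genes. Without WT leukaemic spleen replicate 1 the count was 20, among 329 genes, and without WT non-leukaemic spleen replicate 3 it was 1, among 51. In WT mice 16 passed without leukaemic replicate 1, among 340 genes, 3 without non-leukaemic replicate 3, among 155, and 1 without non-leukaemic replicate 2, among 282. With the authors' deposited normalised values the counts were 42 for both genotypes, among 2957 genes, 38 for WT, among 1736, and 3 for KO, among 598. Without the 3 spleen arrays nearest to marrow the counts were 0, and the medians were 0.81 for both genotypes, 0.92 for WT and 0.70 for KO. The KO minus WT median was then -0.12. Single arrays moved it too. The KO median was 0.11 without KO non-leukaemic spleen replicate 5 and 0.93 without replicate 6, and the KO minus WT median was -1.07 without that replicate 5 and -0.14 without that replicate 6. One slide held a WT spleen array of each state, and there the median member difference was 1.24. The KO leukaemic and non-leukaemic spleen arrays shared no slide.

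Whether the leukaemia difference itself differed between tissues was tested directly. 0 of 50 members passed (limma), against 0% of all genes, and 32 had an unadjusted p under 0.05 in the direction of a larger difference in spleen, against 7.77% of all genes. The median was 0.93. The smallest p belonged to Pold1, at 1.32 ± 0.39 (adjusted p = 0.25), followed by Mcm10 at 2.09 ± 0.62, Dut at 0.86 ± 0.26, Ccne1 at 1.16 ± 0.36, Cdc45 at 1.63 ± 0.52 and Chaf1a at 1.66 ± 0.54. Orc2, Rfc3, Dscc1 and Pole2 had the largest, with values of 0.06, 0.10, -0.07 and 0.02. This test shares its spleen arrays with the comparisons above. With the authors' deposited values 16 members passed, among 369 genes. Without the 3 spleen arrays nearest to marrow 0 passed and the median was 0.94.

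In marrow, leukaemic against non-leukaemic arrays gave 0 of 50 members past the adjusted threshold (limma), against 0.00838% of all genes. The difference was below 0 for 39 of the 50, against 58.2% of all genes, and the median was -0.17. 2 members had an unadjusted p under 0.05, both higher, against 6.9% of all genes. Pcna read 5.19, 5.90, 5.79, 7.26, 7.71 and 7.43 in KO and 5.89, 6.01, 6.66, 7.06 and 6.78 in WT leukaemic marrow, against 5.66, 5.76 and 5.42 in KO and 5.76, 5.58 and 5.85 in WT non-leukaemic marrow. The 6 highest values were those of KO replicates 4, 5 and 6 and WT replicates 3, 4 and 5, the 6 arrays of one slide that held leukaemic marrow alone. Every other array of the study, spleen included, read 6.01 or less. The difference was 0.84 ± 0.29 (unadjusted p = 0.0082, adjusted p = 0.2). It was 0.05 with slide as a fixed block and 0.03 in the authors' deposited values.

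Prim1 stood at 0.28 ± 0.13 (unadjusted p = 0.046), Pole2 at 0.37 ± 0.19, Gmnn at 0.16 ± 0.08, Rpa3 at -0.35 ± 0.18 and Dscc1 at 0.21 ± 0.13. Prim1 ranged over 4.31 to 5.49 (median 4.75) in leukaemic marrow and 4.19 to 4.59 (median 4.48) in non-leukaemic marrow, with overlap. It read 4.66 to 5.49 on the slide that held leukaemic marrow alone and 4.31 to 4.75 on the other leukaemic marrow arrays. Dscc1 read 4.46 to 5.25 and 4.22 to 4.44 there, while Pole2, Gmnn and Rpa3 overlapped between these arrays. On that slide, slide and leukaemia cannot be told apart. The differences of Gins2, Cdk2, Rfc2 and Pole lay between -0.02 and 0.00. Within slides that held both states, the median member difference was -0.58 for KO on one slide and 0.32 and 0.01 for WT on others.

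Between leukaemic spleen and leukaemic marrow 1 of 50 members, Pcna, fell at an adjusted p under 0.05 (limma), against 3.1% of all genes. The member median was -0.17. Pcna ranged over 5.26 to 5.88 (median 5.46) in leukaemic spleen and 5.19 to 7.71 (median 6.66) in leukaemic marrow, and its difference was -0.96 ± 0.28 (adjusted p = 0.041). With slide as a fixed block the difference was -0.14 (adjusted p = 0.88), and in the authors' deposited values it was -0.06, and neither passed. Prim1 stood at -0.36 ± 0.13, Gmnn at -0.21 ± 0.08, E2f2 at -0.65 ± 0.27, Dbf4 at -0.69 ± 0.29 and Orc2 at 0.13 ± 0.06, and none of these passed.

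Rpa1, Orc1, Pold2 and Rfc2 differed by 0.03, -0.01, -0.01 and 0.00 between the leukaemic tissues. Dbf4 ranged over 7.14 to 9.07 (median 7.92) in leukaemic spleen and 7.23 to 9.39 (median 8.86) in leukaemic marrow. In WT mice the median was 0.07 with 0 called, against 0.0168% of all genes, and 1 member was higher at an unadjusted p under 0.05, against 6.28%. In KO mice the median was -0.41 with 0 called, against 2.35% of all genes, and 10 members were lower at an unadjusted p under 0.05, against 10.4% of all genes. The count for both genotypes was 3 without KO leukaemic spleen replicate 2, among 1157 genes. It was 2 without KO marrow replicate 1, among 839 genes, WT marrow replicate 1, among 864, or WT spleen replicate 3, among 933. It was 0 without any one of KO marrow replicates 4, 5 and 6, KO spleen replicates 1, 3 and 4, WT marrow replicates 3, 4 and 5 or WT spleen replicates 1 and 2. Over these omissions 208 to 685 genes were called, or 1.74% to 5.74% of all genes. The KO count was 3 without marrow replicate 1, among 352 genes, and 2 without spleen replicate 2, among 968. Without the 3 spleen arrays nearest to marrow, 6 of 50 members passed for both genotypes, against 12.4% of all genes, and 4 of 50 for KO, against 10.1% of all genes. These shares lie near or below those of all genes. The medians were then -0.36 for both genotypes, -0.15 for WT and -0.55 for KO. Within single slides, with all arrays, the median member difference between KO leukaemic spleen and marrow was -0.27, 0.09 and -1.09. The WT leukaemic spleen and marrow arrays shared no slide.

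Loss of Mif was compared in each tissue and state. 0 of 50 members passed in KO against WT leukaemic spleen, non-leukaemic spleen, leukaemic marrow or non-leukaemic marrow (limma). The share of all genes called in these comparisons was 0.0419%, 0.268%, 0.0419% and 0.0754% in that order. The member median was -0.20 in leukaemic spleen, 0.47 in non-leukaemic spleen, 0.27 in leukaemic marrow and 0.15 in non-leukaemic marrow. At an unadjusted p under 0.05 there were 2 members lower in leukaemic spleen (3.14% of all genes), 1 higher in non-leukaemic spleen (4.03%), 1 higher in leukaemic marrow (1.44%) and 0 in non-leukaemic marrow (2.85% of all genes higher, 2.81% lower). The median in non-leukaemic spleen was -0.07 without KO replicate 6, and that in leukaemic spleen ran from -0.62 to 0.04 as each array was left out. The median in leukaemic marrow was 0.07 without WT replicate 3. Without the 3 spleen arrays nearest to marrow the medians were -0.18 in leukaemic spleen and -0.07 in non-leukaemic spleen. On the slide that held 3 KO and 3 WT leukaemic marrow arrays, WT replicate 3 among them, all 50 members were higher in KO. The median there was 0.64, against 0.01 over all genes, and on another slide with both genotypes it was -0.09. The share of all genes that were higher was not counted. The members move together, as described below, so such a count is not 50 independent results. One slide held a leukaemic spleen array of each genotype, with 49 of the 50 members lower in KO. The share of all genes that were lower was not counted. The KO array there, replicate 4, had the lowest member mean of the leukaemic spleen arrays, 6.66. The median of this pair of arrays was -1.35, against 0 over all genes, and on another slide that median was 0.12. Within slides the median was 0.54 and 0.04 in non-leukaemic spleen and 0.19 and 0.06 in non-leukaemic marrow.

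The members moved together from array to array. After the mean of each group was removed, the first principal component held 82.1% of the members' variance over the 30 arrays. The correlation of a member with the mean of the others had a median of 0.89, and 43 of the 50 reached 0.7. It was highest, at 0.97, for Mcm2, Mcm7 and Rrm1. Below 0.7 lay Pole2 at 0.58, E2f2 at 0.42, Pcna and Dscc1 at 0.41, Prim1 at 0.36, Gmnn at 0.34 and Orc2 at -0.02. These correlations share arrays, slides and normalisation and are given as a description.

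The 10 genes outside the members and all other lists used here that were most like the member mean, by the same correlation over the 30 arrays, were Ncaph at 0.973, Cenpn at 0.965, Gtse1 at 0.961, Brca2 at 0.957, Mybl2 and Tyms-ps at 0.955, Cdca5 at 0.954, Fignl1 and Kif4 at 0.953 and Psmc3ip at 0.946. Tyms-ps is a processed copy of the member Tyms, and its probe could bind RNA of either. Ncaph encodes a subunit of condensin and Kif4 a kinesin of mitosis. The median correlation of single genes with the member mean was 0.92 over the mitosis list, 0.65 over the erythroid list, 0.65 over the other replication genes and 0.49 over the neutrophil list. It was 0.48 over the regulators of the step into S phase, 0.47 over the megakaryocyte, 0.29 over the progenitor and -0.35 over the monocyte list. The eosinophil list and the T and NK cell list each had 0.16, the B cell list 0.08 and the macrophage list -0.17.

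21 members had more than one probe that passed the filter, and the values above come from the probe with the highest mean intensity. For the non-leukaemic tissue comparison all probes of a member had the same sign in 18 of the 21, the exceptions being Cdc6, Rpa2 and Tk1. Cdc6 had other probes at -0.09 and 0.06, detected on 10 and 3 arrays, against -1.66 for the probe used. Rpa2 had probes at -0.48 and 0.01, each detected on 29 arrays, against -0.70 for the probe used. Tk1 had other probes at -0.88 on 29 arrays and 0.15 on 3 arrays, against -2.08. Mcm6, whose probe used did not pass at -1.36, had other probes at -1.61 ± 0.40 (unadjusted p = 0.00049, limma) and -1.56 ± 0.44 (unadjusted p = 0.0016), each detected on all 30 arrays, and the fourth, at -0.11, was detected on 6. Of the 4 Mcm6 probes, 3 gave 1.31, 1.21 and 1.24 for leukaemia in spleen and the fourth gave -0.01. For leukaemia in spleen the signs were the same in 16 of the 21, the exceptions being Cdc6, Mcm6, Orc2, Rfc5 and Tk1. In marrow they were the same in 13, in the test of the leukaemia difference between tissues in 16, and between the leukaemic tissues in 12.

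Other lists were measured in the same fit, where 4.73% of all genes were lower and 3.03% higher in non-leukaemic spleen than marrow. Of 42 further replication genes, 11 were lower in non-leukaemic spleen than marrow, with a median of -0.44. Asf1b, a histone chaperone, stood at -1.90 ± 0.31, Top2a, topoisomerase II alpha, at -2.83 ± 0.47, Rnaseh2c at -0.87 ± 0.15 and Chtf18 at -1.70 ± 0.40. Of 18 regulators of the step into S phase, 4 were lower, with a median of -0.33. They include the genes of the smallest p, Cdkn2c at -1.55 ± 0.29, Tfdp1 at -1.42 ± 0.32, Rbl1 at -0.85 ± 0.22 and Tfdp2 at -1.51 ± 0.44. Of 22 mitosis genes 20 were lower, with a median of -2.50, among them Ndc80 at -2.27 ± 0.34, Anln at -2.54 ± 0.39, Kif11 at -2.65 ± 0.41 and Plk1 at -2.86 ± 0.45.

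Markers of some other blood cells were lower in non-leukaemic spleen as the members were, and markers of others were not. Between non-leukaemic spleen and marrow, 9 of 20 erythroid markers were lower (median -2.50), among them Alas2 at -3.74 ± 0.89 and Slc4a1 at -3.78 ± 0.95. So were 7 of 21 neutrophil and granule markers (median -2.88), among them Mpo at -4.48 ± 0.81, and 4 of 7 eosinophil markers (median -2.04), among them Prg2 at -4.31 ± 0.87. 3 of 16 macrophage markers were higher in spleen (median 1.03), including Spic, a factor of red pulp macrophages, at 3.46 ± 0.39. None of 12 B cell and none of 13 T and NK cell markers passed, and the T and NK cell median was 0.72. Of 7 megakaryocyte markers 1 was higher (median -0.18), of 9 monocyte markers 1 was higher (median -0.20), and of 8 progenitor markers 1 was lower (median -0.56). Of all genes 4.73% were lower and 3.03% higher, and 1 call in so short a list is not a result about its cell type. With the 3 spleen arrays nearest to marrow left out, 16 erythroid, 14 neutrophil, 4 eosinophil and 20 mitosis genes were lower and 5 macrophage markers higher. Calls over all genes, in either direction, then rose to 12.1%.

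The erythroid list mean ran from 7.21 to 9.95 in leukaemic spleen and 4.80 to 9.40 in non-leukaemic spleen, and from 6.86 to 9.73 in leukaemic marrow and 8.19 to 9.97 in non-leukaemic marrow. The neutrophil list mean ran from 6.21 to 11.41 in leukaemic spleen and 5.81 to 9.13 in non-leukaemic spleen, and from 8.08 to 11.37 in leukaemic marrow and 8.43 to 11.40 in non-leukaemic marrow. For leukaemia in spleen none of these lists had a member past the adjusted threshold. The medians there were 1.35 for mitosis, 1.72 for erythroid, 0.79 for neutrophil, 0.44 for the other replication, 0.48 for megakaryocyte, 0.51 for progenitor, -0.16 for monocyte and -0.87 for the macrophage markers. With the 3 spleen arrays nearest to marrow left out they were 1.31 for mitosis, 2.30 for erythroid, 0.03 for neutrophil and -1.07 for the macrophage markers. The megakaryocyte list mean ran from 4.84 to 6.01 in leukaemic and 4.51 to 5.67 in non-leukaemic spleen, the progenitor mean from 5.14 to 6.90 and 4.45 to 5.97, and the monocyte mean from 7.80 to 10.09 and 6.4 to 10.51. Of 20 erythroid markers 1, Rhd, was undetected on every array of both spleen states. Of 12 B cell markers, 4 were undetected throughout non-leukaemic and 2 throughout leukaemic spleen, with Ms4a1 (CD20) in both sets. The other erythroid and B cell markers were detected on at least 1 array of each spleen state. Ube2c of the mitosis list was undetected throughout both spleen states. The eosinophil markers Epx, Il5ra and Alox15 and the progenitor markers Cd34 and Hoxa9 were undetected throughout non-leukaemic spleen. So were Ncr1 of the T and NK cell list and Ccna2 of the S phase regulators, and the eosinophil marker Ccr3 was undetected throughout leukaemic spleen. The B cell list mean was 6.17 on KO leukaemic spleen replicate 2 and 4.50 to 5.32 on the other arrays. The macrophage list mean was 10.26 on WT non-leukaemic spleen replicate 1 and 8.68 or less on the other arrays. That replicate also gave the lowest monocyte mean, 6.4. No neutrophil or macrophage marker measured was undetected throughout a tissue and state. Between leukaemic spleen and leukaemic marrow, where the member median was -0.17, the mitosis median was -0.93, the neutrophil median -1.76 and the eosinophil median -1.85. The other list medians there ran from -0.09 for the S phase regulators to 1.26 for T and NK cells, with erythroid at 0.29. Without the 3 spleen arrays nearest to marrow the member median was -0.36, that of mitosis -1.33 and that of neutrophil -2.77. The part of other cells in the members' differences was not tested.

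**Figure D4:**
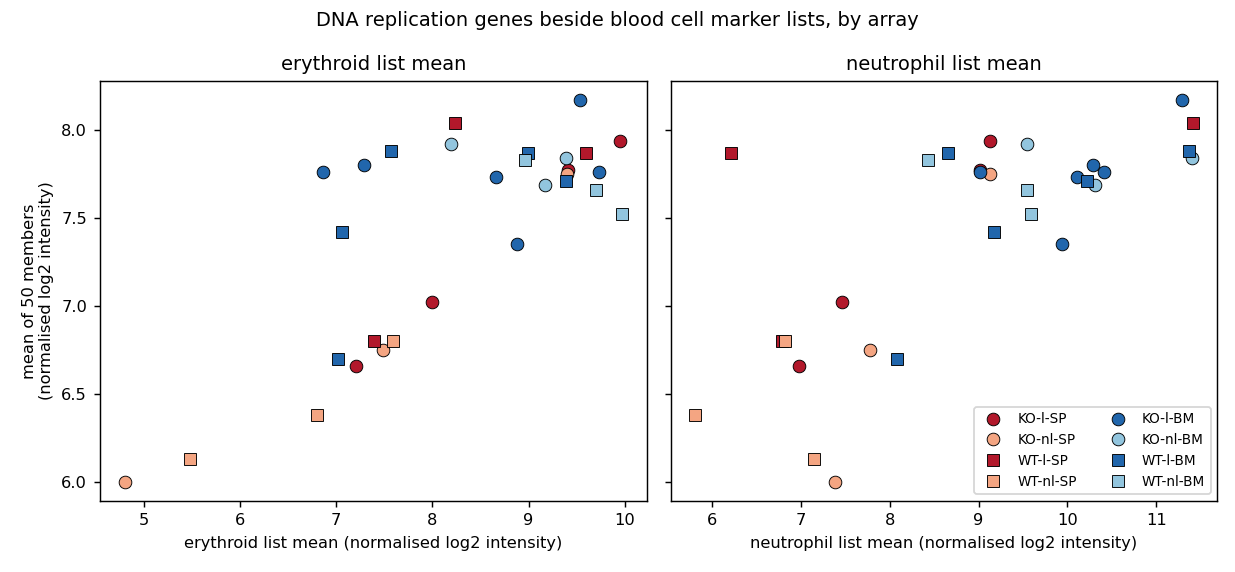
Mean log2 intensity of the 50 measured members (vertical axes) against the mean of the erythroid list and of the neutrophil list (horizontal axes, log2 intensity) on the 30 arrays. Each point is an array, marked by group; the non-leukaemic spleen arrays, between 6.00 and 7.75 on the member axis, span 4.80 to 9.40 on the erythroid axis and 5.81 to 9.13 on the neutrophil axis.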

How the data were processed

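Biotin-labelled RNA of sorted F4/80+ macrophages was hybridised to 30 Illumina bead arrays. The authors deposited, per the file headers, a bead intensity and a detection p-value for 45281 probes on each array, not normalised. They also deposited normalised log2 values, whose columns correlated at 0.99 to 0.997 with log2 intensity of the same array. Every such column has a median of 6.41, and how they were centred is unknown. Partek is named per the submitters' processing notes, with no version.

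From the deposited intensities, background correction, quantile normalisation and log2 were applied by limma's neqc (limma 3.58.1, R 4.3.3, offset 16), which here derives the negative controls' mean and variance from detection p-values. A probe stayed if its detection p was under 0.05 on 3 or more arrays (23515 probes). A platform table, which can be old, gave 34885 probes with 1 gene symbol, 18 with several and 10378 with none listed. The gene ID of 34807 probes matched the RefSeq table. The kept probe of highest mean intensity stood for each gene. A linear model over the 8 groups gave 18 comparisons by limma's moderated test, with Benjamini-Hochberg adjustment over 11937 genes at 0.05, and "both genotypes" is the mean of the KO and WT comparisons. Arrays nearest to another tissue were found by correlation over all genes. No columns were identical, and the highest correlation between arrays was 0.9938. The script was tested on simulated data. Samples were grouped by their titles. Replicate numbers in the labels do not pair the arrays: of 31 same-numbered pairs, 10 had a correlation of deviations over 0.1. Alternatives changed the background correction, scaling, filter, probe choice, weights, blocks and arrays used. Genes were named with full values by rank of p in each comparison, by subgroup and by likeness to the member mean. The members and lists were chosen with earlier results of these data known.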

Additional observations from a re-analysis of the deposited data

Results flagged for a closer look

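In 8 of 153 sets of values, one for each of the 50 members and for their mean in each of the 3 groups of 4 to 6 arrays, a single array lay far from the others of its group, which is 5.23%, and chance gives about 1 in 20. In WT leukaemic marrow, replicate 3 read 8.47 for Mcm6 against 9.52 to 9.87 on the others, and 4.51 for Gins2 against 5.89 to 6.17. In the same group, replicate 1 read 4.58 for Orc2 against 4.17 to 4.26, and replicate 5 read 4.66 for Dscc1 against 4.42 to 4.46, both near the limit of detection. In KO leukaemic marrow, replicate 1 read 7.80 for Cdc7 against 8.80 to 9.08, and 8.68 for Pold1 against 9.18 to 9.28. Orc1 read 5.65 on replicate 5 of that group against 4.77 to 4.96. In KO leukaemic spleen, E2f2 read 11.62 on replicate 2 against 10.13 to 10.17, and that array correlated best with a marrow array over all genes.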

How the results depend on the processing

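Counts of members past the adjusted threshold and their medians were judged by unlike rules, so their steadiness cannot be compared. A count moved if it changed by over 1.5 times, or to or from 0. A median moved if it shifted by 0.484 or more, the SD of the member mean within groups. Over 13 alternatives and the omission of single arrays, 353 of the counts stayed within 1.5 times and 74 moved, while 425 medians moved by less than the spread between arrays and 2 by more. A count of 0 that stayed at 0 was scored as unmoved, and most comparisons had a count of 0. The 353 therefore does not measure how steady the counts above 0 were.

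For leukaemia in spleen, the count of 0 became 42 (24.8% of all genes; WT 38, 14.5%; KO 3, 5.01%) with the authors' deposited values and 7 (3.74%; WT 5, 1.95%) with slide as a fixed block, and the WT count was 1 without background correction (0.503%) or with array weights (0.687%). With the authors' values 16 members passed for the leukaemia difference between tissues (3.09% of all genes). Between non-leukaemic tissues, the WT count of 9 became 35 with the authors' values (16.2%), 19 with slide as a fixed block (6.17%), 4 with no filter (1.64%), 15 with only the groups compared (2.56%), 27 with array weights (12.4%), 0 without 3 arrays doubted in earlier work on these data (0.653%) and 24 without the 3 spleen arrays nearest to marrow (5.99%), a choice made after seeing the data. The KO count of 0 became 18 with the authors' values (6.42%), 1 with slide as a fixed block (1.43%), 13 with array weights (4.31%) and 18 without those nearest arrays (2.73%). Between leukaemic tissues, the count of 1 became 0 without background correction (5.09% of all genes), with 75th percentile scaling (3.65%) and with no filter (2.86%). It was also 0 with slide as a fixed (0.251%) or random block (5.84%) and with only the groups compared (5.53%). It became 2 (12.1%; KO 1, 6.06%) with the authors' values, 5 (16.4%; KO 2, 7.34%) with array weights, 6 (13.9%; KO 3, 11.3%) without the doubted arrays and 6 (12.4%; KO 4, 10.1%) without the nearest ones, shares of the members near or below those of all genes. Array weights gave 3 members for leukaemia in marrow (18.7%; WT 2, 10.1%; KO 1, 2.94%) and 1 for Mif loss in non-leukaemic marrow (12.1%), again no larger shares than among all genes. The median for Mif loss in non-leukaemic spleen was -0.07 without the nearest arrays. Dscc1 for leukaemia in marrow turned to -0.04 with slide as a fixed block. The causes were not tested. In the authors' values slide held 0.191% of the within-group variance of the median gene, against 24.2% in the values used here.

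The replicate number as a block gave 16 members for non-leukaemic tissues (4.43%, and for WT 5, 2.7%) and 0 for leukaemic tissues (1.29%). It moved no other count by over 1.5 times, and the numbers do not pair the arrays. With single arrays left out, the count ran from 0 to 24 for leukaemia in spleen (WT 0 to 16), 12 to 41 for non-leukaemic tissues (WT 0 to 9, KO 0 to 9) and 0 to 3 for leukaemic tissues (KO 0 to 3), and the other counts stayed at 0. The medians ran from 0.62 to 0.99 for leukaemia in spleen (WT 0.92 to 1.5, KO 0.11 to 0.93), -0.22 to -0.05 in marrow (WT -0.32 to 0.04, KO -0.19 to -0.04), 0.75 to 1.17 for the difference between tissues and -1.07 to -0.14 for that between genotypes. They ran from -1.34 to -0.86 for non-leukaemic tissues (WT -1.38 to -1.10, KO -1.42 to -0.54) and -0.26 to 0.04 for leukaemic tissues (WT -0.15 to 0.50, KO -0.55 to -0.18). For Mif loss they ran from -0.62 to 0.04 in leukaemic spleen, -0.07 to 0.80 in non-leukaemic spleen, 0.07 to 0.36 in leukaemic marrow and 0.06 to 0.23 in non-leukaemic marrow. Signal near background limits what Orc2, Gmnn, Prim1 and Dscc1 can show.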
